A study of Homo sapiens with 8 samples.

Results

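The genes described here are 7 that code for proteins of insulin receptor signaling and for regulators of phosphoinositide 3-kinase (PI3K). They are the insulin receptor gene INSR, the receptor substrate genes IRS1 and IRS2, the kinase gene SGK1, the PI3K antagonist genes INPP5D and PIK3IP1, and FBXO32, a gene under the control of FOXO factors. They were taken by symbol from a deposited table of 1950 genes, and all 7 were in it. K562 is an established human chronic myeloid leukemia cell line. In 4 libraries the cells had received an extract named CPM at 80 µg/mL for 3 days, and the title of the series spells it out as Caulis Polygoni Multiflori, a stem used in Chinese medicine. The other 4 libraries are controls without CPM, and how long they were cultured is not in the labels, so time and extract cannot be told apart. Apart from CPM the labels describe both groups alike, as the same line in the same serum-supplemented medium, and the title names PI3K/Akt and MEK/ERK signaling as what the study asks about. Whether libraries of 1 group stem from different cultures is not stated, so every p-value reflects the variation among these 8 libraries alone, which may be technical.

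When insulin or a related hormone binds its receptor, the receptor phosphorylates IRS1 and IRS2, and these adaptors recruit PI3K to the membrane. PI3K makes a phosphoinositide lipid that recruits AKT and the kinases that activate AKT and SGK1. INPP5D (SHIP1) removes a phosphate from that lipid, and PIK3IP1 is a membrane protein that binds the catalytic subunit of PI3K and lowers its activity. AKT and SGK1 phosphorylate FOXO transcription factors, which then leave the nucleus, and IRS2, INSR, PIK3IP1 and FBXO32 are among the genes described as FOXO targets in other cells. K562 cells carry the BCR-ABL fusion kinase, which itself activates PI3K.

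The promoters of 6 of the 7 genes were taken from the RefSeq promoter table (GRCh38.p14), as 9 start sites. FBXO32 was left out of this search, so nothing is said here of its promoter. They were searched on both strands for 2 short elements, the FOXO core GTAAACA and the core of insulin response elements CAAAACA, in windows from 250 bases before to 30 bases after the start. The windows are shown for the adaptor pair and for the start sites of SGK1 and PIK3IP1 that hold an element, since these genes carry the expression results below. Capitals mark the element, written as it stands on the strand of the gene, where both kinds appear as their reverse complements TGTTTAC and TGTTTTG.
IRS1 (chr2:226799791-226800070, minus strand): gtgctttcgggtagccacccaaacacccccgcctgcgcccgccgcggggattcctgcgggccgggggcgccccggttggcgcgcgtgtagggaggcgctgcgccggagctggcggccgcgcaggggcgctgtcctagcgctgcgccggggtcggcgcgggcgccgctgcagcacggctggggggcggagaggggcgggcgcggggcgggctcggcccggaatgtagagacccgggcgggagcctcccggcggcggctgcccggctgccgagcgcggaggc
IRS2 (chr13:109786554-109786833, minus strand): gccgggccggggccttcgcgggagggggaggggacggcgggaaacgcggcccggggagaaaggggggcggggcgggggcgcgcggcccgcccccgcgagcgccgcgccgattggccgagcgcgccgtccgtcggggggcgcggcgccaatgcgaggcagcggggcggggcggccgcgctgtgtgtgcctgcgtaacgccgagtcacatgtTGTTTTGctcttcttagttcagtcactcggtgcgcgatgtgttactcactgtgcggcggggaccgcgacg
SGK1 (chr6:134177832-134178111, minus strand): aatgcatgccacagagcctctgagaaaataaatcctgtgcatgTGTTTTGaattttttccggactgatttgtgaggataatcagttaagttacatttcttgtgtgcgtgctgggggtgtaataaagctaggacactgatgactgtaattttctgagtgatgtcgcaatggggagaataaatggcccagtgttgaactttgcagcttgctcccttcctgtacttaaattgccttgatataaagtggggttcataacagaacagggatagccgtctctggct
PIK3IP1 (chr22:31292459-31292738, minus strand): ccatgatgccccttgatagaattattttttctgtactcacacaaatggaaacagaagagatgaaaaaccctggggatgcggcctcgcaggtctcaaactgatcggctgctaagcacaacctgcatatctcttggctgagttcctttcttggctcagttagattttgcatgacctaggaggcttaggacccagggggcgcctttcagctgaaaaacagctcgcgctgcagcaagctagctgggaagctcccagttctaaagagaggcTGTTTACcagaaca

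IRS2 held the insulin response core, with its first base at position -40 relative to the start. 1 of the 3 SGK1 start sites held the same core at -207. 1 of the 2 PIK3IP1 start sites held the FOXO core, beginning at base 17 of the transcript. Neither element was found in the windows of IRS1, INSR and INPP5D. Of all 35116 promoters of the table, 3.25% held the FOXO core and 4.67% the insulin response core in a window of this length. The elements do not overlap each other in the windows shown, and which start sites K562 cells use was not measured here. Base composition differed between the genes, with 81.4% G and C in the window of IRS1, 75.7% in that of IRS2, 78.2% in that of INSR, 59.6% in that of INPP5D and 49.3% in the PIK3IP1 window shown, against a median of 58.2% over all promoters. The adaptor genes IRS1 and IRS2, whose RNA moved in opposite directions, thus both start in GC-rich DNA.

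The deposited table holds normalized expression values. Their unit is not given in the sources used here, and values are compared between libraries for 1 gene and never between genes. It lists only genes that the authors' own comparison had chosen: every one has a deposited p-value of at most 0.0499 and a change of at least 1.50-fold in the authors' deposited table. All 7 genes were therefore picked for a difference between these same libraries before any test here, and no call below is independent evidence of one. Sequencing depth is unknown, and the listed values sum to between 13114 and 14134 per library, which is no measure of depth for a partial list. Of 13 K562 and erythroid markers only the zeta globin gene HBZ was listed, at 4952 to 5306 with extract and 2834 to 2920 in control. Correlations of log2 values over the tested genes were 0.938 to 0.962 within groups and 0.819 to 0.875 across groups, and no libraries were identical.

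Of the 7 genes, IRS1 and SGK1 were higher with the extract, INPP5D, IRS2 and PIK3IP1 were lower, and INSR and FBXO32 overlapped between the groups. The filter on low values kept genes that reached 1 in 4 or more libraries, which IRS1, SGK1 and INPP5D did, and all 3 were called (adjusted p under 0.05 in limma). That count is read against a background of 82.8% of the 750 genes tested that were called, 26.8% higher and 56.0% lower with the extract, so being called sets none of the 3 apart. IRS1 passed the filter only through the extract libraries, where it is high, so its call and its separated groups follow in part from how it was kept, while SGK1 and INPP5D were above 1 in all 8 libraries. Without the filter, 5 of the 7 genes were called, 2 higher and 3 lower, against 45.2% of all 1950 listed genes, 16.1% higher and 29.1% lower. The groups did not overlap for the same 5 genes, against 41.9% of all listed genes. Among the genes past the filter the groups were apart for 67.7%, a share that also counts genes kept through 1 group alone, and nothing is read from it for IRS1.

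**Figure D1:**
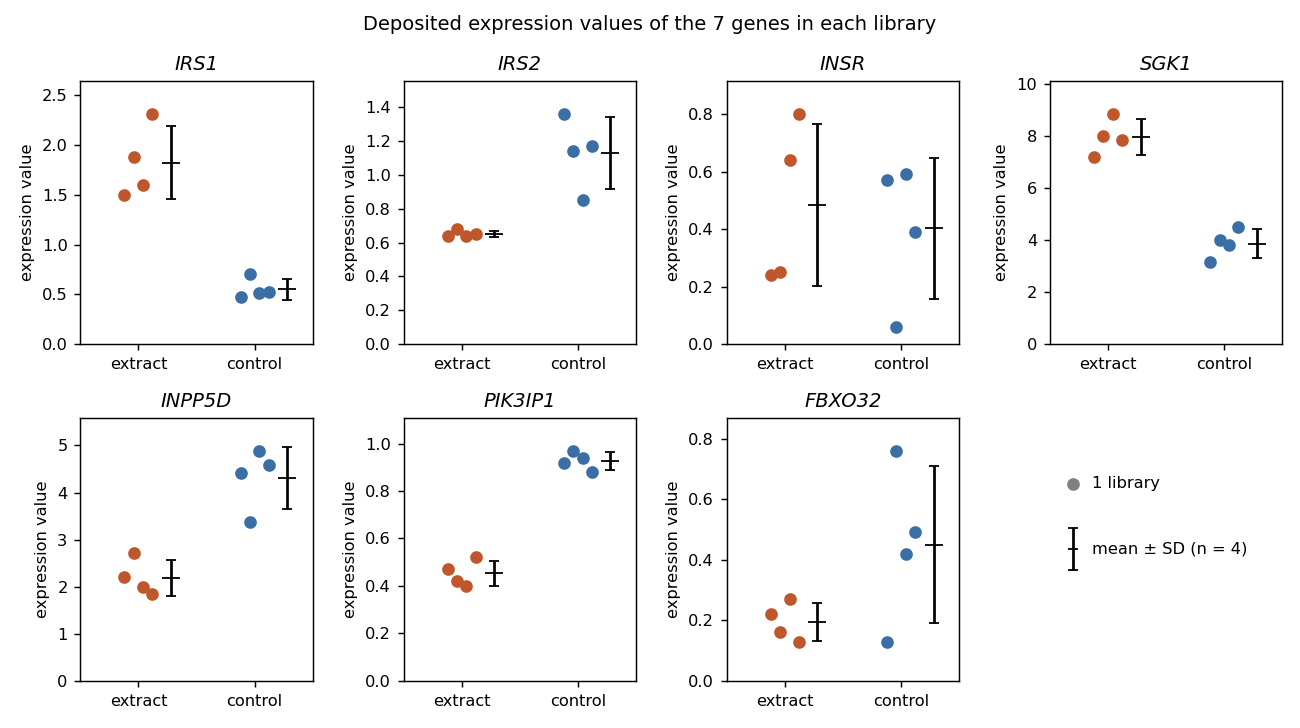
Deposited expression values (vertical axis, unit not stated, each panel on its own scale from 0) of the 7 genes, with 1 point per library, extract on the left and control on the right of each panel, and the mean ± SD beside the points (n = 4 each). For IRS1 and SGK1 all extract points lie above all control points, for IRS2, INPP5D and PIK3IP1 all lie below, and for INSR and FBXO32 the points overlap.

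The receptor gene INSR (ENSG00000171105, chromosome 19, 7112255 to 7294034, GRCh38) was low and uneven in both groups. Its expression value was 0.24, 0.25, 0.64 and 0.80 in extract 1 to 4, against 0.57, 0.06, 0.59 and 0.39 in control 2, 3, 4 and 5. The groups overlapped widely, with extract 4 the highest and control 3 the lowest of all 8 libraries. The means were 0.483 ± 0.282 with extract and 0.403 ± 0.245 in control (SD, n = 4 each). The difference was smaller than the spread between libraries, at 0.08 ± 0.18 (log2(value + 1), standard error) in the limma fit without a filter, with a 95% interval of -0.33 to 0.49 and an adjusted p of 0.681. The sign of the difference turned when extract 4 or control 3 was left out, to -0.021 and -0.050. The authors' deposited table nonetheless lists INSR as higher with the extract, with a log2 fold change of 0.85 and an adjusted p of 0.0237. The ratio of the deposited means corresponds to a log2 change of 0.26, which is 0.59 below what the authors' deposited table gives. Among the 1539 genes with both means above 0 the median gap between these measures was 0.08, and 8.71% of them had a gap at least as large as that of INSR. Applied to the control mean, the fold of the authors' deposited table would be 0.30 on the log2(value + 1) scale, inside the interval above, so the values of INSR neither separate the groups nor bar a change of that size.

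IRS1 (ENSG00000169047, chromosome 2, 226731317 to 226799759), one of the main adaptors between receptors and PI3K, had the largest rise in ratio among the 7 genes. IRS1 was at expression values of 1.50, 1.88, 1.60 and 2.31 in extract 1 to 4, against 0.47, 0.70, 0.51 and 0.52 in control 2, 3, 4 and 5. Every extract library lay above every control library, with 1.50 in the lowest extract library and 0.70 in the highest control library. The means were 1.82 ± 0.363 with extract and 0.55 ± 0.102 in control, a ratio of 3.31. On the log2(value + 1) scale, which understates the change of low genes, the rise was 0.86 ± 0.11 (standard error, adjusted p = 0.000314 in limma), and with a pseudocount of 0.1 it was 1.56. IRS1 entered the filtered fit only through its extract libraries, where it is high, so its p-value and rank there are not read as support. The rank was 27th by size of the 201 genes called higher, and the adjusted p without the filter was 0.000926 in limma. The authors' deposited table gives a log2 fold change of 1.39, below the 1.73 of the ratio of means.

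IRS2 (ENSG00000185950, chromosome 13, 109752698 to 109786568), the adaptor gene that is itself described as a FOXO target in liver, was lower with the extract. Its expression value was 0.64, 0.68, 0.64 and 0.65 in extract 1 to 4, against 1.36, 1.14, 0.85 and 1.17 in control 2, 3, 4 and 5. The extract libraries lay close together, with a coefficient of variation of 2.90%, and all below the control libraries, whose coefficient was 18.6%. The means were 0.653 ± 0.0189 with extract and 1.13 ± 0.211 in control. IRS2 reached 1 in only 3 libraries and so missed the filter. In the fit without a filter its change was -0.36 ± 0.09 (log2(value + 1), standard error, adjusted p = 0.0180 in limma). The call was lost when the adjustment assumed the authors' family of 60664 genes (adjusted p = 0.559 in limma). That value is an upper limit, since the p-values of unlisted genes are unknown. An antisense gene overlaps IRS2, and the sources used here do not say whether the library kit kept strand, so reads of the pair cannot be told apart.

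Within each library the value of IRS1 relative to IRS2 does not depend on how whole libraries were scaled. That ratio was 2.34, 2.76, 2.50 and 3.55 in extract 1 to 4, against 0.346, 0.614, 0.600 and 0.444 in control 2, 3, 4 and 5. The ratio was thus higher in all extract libraries than in any control library, and the group means of its log2 differed by 2.50. Since every extract library was higher for IRS1 and lower for IRS2, the ratio had to separate the groups, and no test is given for it. The pair was set side by side with the values of both genes known. The ratio describes unequal change of the adaptors and not which of them was more abundant.

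SGK1 (ENSG00000118515, chromosome 6, 134169246 to 134318112), a kinase gene that responds to serum and glucocorticoids and whose protein shares targets with AKT, was higher with the extract. SGK1 had expression values of 7.19, 8.01, 8.86 and 7.86 in extract 1 to 4, against 3.15, 4.01, 3.81 and 4.52 in control 2, 3, 4 and 5. The groups did not overlap, and the coefficients of variation of 8.60% with extract and 14.6% in control were among the smaller of the 7 genes. The means were 7.98 ± 0.686 with extract and 3.87 ± 0.567 in control, a ratio of 2.06. In limma the rise was 0.89 ± 0.11 (log2(value + 1), standard error, adjusted p = 0.000217), the 24th by size of the 201 genes called higher. For SGK1 the log2 ratio of means, 1.04, was close to the 1.02 that the authors' deposited table gives.

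INPP5D (ENSG00000168918, chromosome 2, 233059967 to 233207903), the gene of the blood-cell lipid phosphatase SHIP1, was lower with the extract. Its expression value was 2.21, 2.72, 2.0 and 1.84 in extract 1 to 4, against 4.41, 3.37, 4.89 and 4.59 in control 2, 3, 4 and 5. Control 3 was the lowest control library but still lay above extract 2, the highest extract library. The means were 2.19 ± 0.383 with extract and 4.32 ± 0.660 in control, and the ratio of extract over control was 0.508. In limma the fall was -0.73 ± 0.13 (log2(value + 1), standard error, adjusted p = 0.00145), 156th by size of the 420 genes called lower. The call was lost over the authors' family of 60664 genes (adjusted p = 0.117). INPP5D is active in lymphoid and myeloid cells, and a listed T-cell marker moved the same way: CD3D, 1 of 4 such markers in the table, was at 18.5 to 22.9 with extract and 40.1 to 43.8 in control. None of the 5 monocyte and granulocyte markers was listed (0 in the table). All 8 libraries are of the K562 line, so CD3D is no measure of a share of T cells here. Whether fewer cells of the line expressed it was not tested, and in bulk RNA fewer such cells and less RNA per cell cannot be told apart.

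PIK3IP1 (ENSG00000100100, chromosome 22, 31281593 to 31292534), the inhibitor that binds the catalytic subunit of PI3K, was lower with the extract and was among the steadiest of the 7 genes. The expression values were 0.47, 0.42, 0.40 and 0.52 in extract 1 to 4, against 0.92, 0.97, 0.94 and 0.88 in control 2, 3, 4 and 5. The groups were well apart, and the coefficient of variation was 11.9% with extract and 4.07% in control. The means were 0.453 ± 0.0538 with extract and 0.928 ± 0.0377 in control, a ratio of 0.488. No library reached 1, so PIK3IP1 missed the filter. Without a filter the fall was -0.41 ± 0.07 (log2(value + 1), standard error, adjusted p = 0.00330 in limma), and with a pseudocount of 0.1 it was -0.90. The call was lost over the authors' family of 60664 genes (adjusted p = 0.103). The antisense gene PIK3IP1-AS1 overlaps it, with the same limit on strand as for IRS2.

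FBXO32 (ENSG00000156804, chromosome 8, 123497889 to 123541206) codes for atrogin-1, the substrate-binding subunit of a ubiquitin ligase known from muscle wasting, where FOXO factors induce it. Its expression value was 0.22, 0.16, 0.27 and 0.13 in extract 1 to 4, against 0.13, 0.76, 0.42 and 0.49 in control 2, 3, 4 and 5. Control 2 equalled the lowest extract library, while the other control libraries lay above all extract libraries. The means were 0.195 ± 0.0624 with extract and 0.45 ± 0.259 in control. The difference of -0.26 ± 0.13 (log2(value + 1), standard error) had a 95% interval of -0.57 to 0.04 and did not pass in limma without a filter (adjusted p = 0.120). It passed without control 2, at -0.38 (adjusted p = 0.0273 in limma), and not in the other 7 fits that left out a library. The authors' deposited table gives a log2 fold change of -0.86 with an adjusted p of 0.338, so FBXO32 was the 1 gene of the 7 that did not reach an adjusted p under 0.05 there, where 45.9% of the listed genes did.

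**Figure D2:**
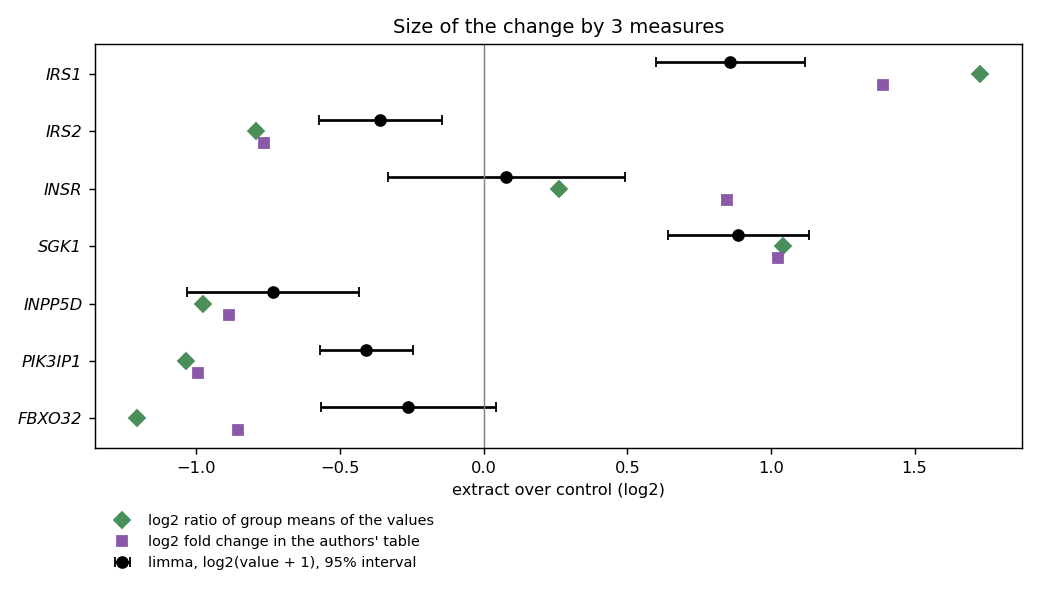
Change of each gene, extract over control, on a log2 axis. Circles with bars are limma's estimate on log2(value + 1) with its 95% interval, diamonds the log2 ratio of the group means, and squares the log2 values of the authors' deposited table. The circles are on a scale that compresses low genes and the other symbols are not; for INSR the diamond at 0.26 and the square at 0.85 lie apart, while for SGK1 they nearly coincide.

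An exact two-sided permutation test of each listed gene gave p = 0.0286, the smallest that 4 against 4 libraries can give, for IRS1, IRS2, SGK1, INPP5D and PIK3IP1, p = 0.657 for INSR and p = 0.143 for FBXO32. Of all 1950 listed genes 41.9% reached that smallest p. Adjusted over all listed genes its smallest value was 0.0681, so by this test 0 genes were called (0.00% of the table), and 818 had an unadjusted p under 0.05.

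The sizes depend on how libraries are set against each other. Centring each library on the median of the tested genes moved that median by -0.27 (log2, extract minus control), and relative to this shift IRS1 was at 1.13, SGK1 at 1.15 and INPP5D at -0.47. Over all listed genes the shift was -0.04, which left IRS2 at -0.32 and PIK3IP1 at -0.37. The direction of all 5 genes held under this and under quantile normalization, and so did their calls in limma. The table lists only genes chosen for a change, and 56.0% of those tested were called lower, so its median need not mark unchanged genes. Neither setting is therefore a check of how the libraries were scaled. With the larger shift of -0.27 removed from every gene, the exact permutation test gave unadjusted p = 0.314 for IRS2 and 0.0571 for INPP5D, in place of 0.0286, so the groups of both then overlapped.

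**Figure D3:**
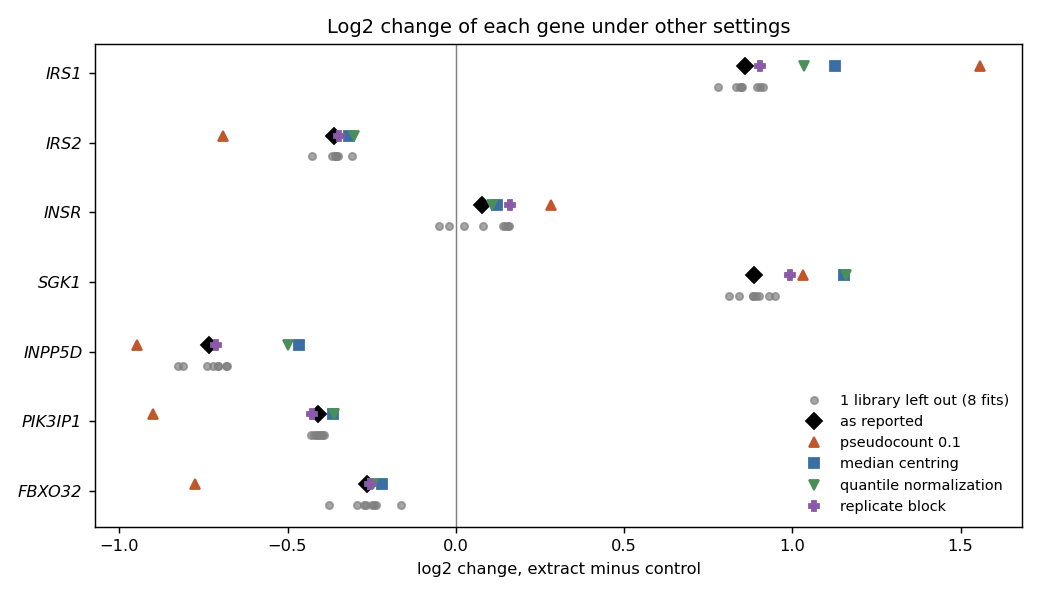
Log2 change of each gene, extract minus control (horizontal axis), under other settings. Black diamonds are the values reported above, colored symbols change 1 setting each and grey points leave out 1 of the 8 libraries; only INSR has points on both sides of 0.

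The other genes of the pathway were taken from 9 lists, which were drawn up with earlier results of these data known. Of their 152 genes other than the 7, 18 were in the table (11.8%), 12 passed the filter, and 3 rose and 9 fell, against the background of 26.8% and 56.0% of tested genes. The 14 genes for catalytic and regulatory subunits of PI3K were not listed (0 found), hence not analysed here. Of the 15 genes for AKT, SGK and linked kinases SGK1 was the 1 listed, and the AKT genes were not analysed here.

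Of 13 genes for insulin and IGF ligands, receptors and binding proteins 3 were in the table, and 1 of them was tested. It was IGFBP4, which codes for a secreted protein that binds IGF and limits its action. IGFBP4 was at 28.9, 28.9, 28.2 and 29.3 in extract 1 to 4, against 45.3, 49.9, 46.8 and 49.2 in control 2, 3, 4 and 5. The groups lay far apart, and the fall was -0.71 ± 0.04 (log2(value + 1), standard error, adjusted p = 5.79e-06 in limma).

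Of 23 adaptor genes 7 were in the table. The filter left 3, of which IRS1 rose and GAB3 and GRB7 fell. Their median log2 change was -0.41, against -0.50 for all tested genes. GAB3, an adaptor of blood cells, averaged 7.18 ± 0.560 with extract and 11.2 ± 0.548 in control without overlap (adjusted p = 0.000246 in limma). GRB7, an adaptor that binds receptor tyrosine kinases, averaged 2.34 ± 0.336 with extract and 3.47 ± 0.805 in control, and its groups overlapped (adjusted p = 0.0352 in limma, 0.0561 without a filter and 1 over the authors' family). GRB14, an adaptor that inhibits the insulin receptor, averaged 0.500 ± 0.317 with extract and 1.32 ± 0.489 in control, below the filter and with overlapping groups (adjusted p = 0.0400 in limma without a filter, and 1 over the authors' family).

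Of 30 inhibitors of the pathway and phosphoinositide phosphatases 4 were in the table and moved in opposite directions. INPP5D and PIK3IP1 fell, while SOCS1 and SOCS3, whose proteins restrain cytokine receptors and also bind IRS proteins, rose. Over the authors' family SOCS1 did not pass (adjusted p = 0.252 in limma). SOCS3 averaged 9.08 ± 0.0902 with extract and 6.09 ± 0.478 in control (adjusted p = 0.000407 in limma). Among 13 genes of the mTOR complexes only RHEBL1, a relative of the mTOR activator RHEB, was listed. It averaged 3.02 ± 0.918 with extract and 5.09 ± 0.633 in control (adjusted p = 0.0124 in limma, and 0.999 over the authors' family).

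Of 27 FOXO factors and their targets 10 were in the table, 2 higher and 8 lower in the authors' deposited table, where 43.6% of all listed genes were higher and 56.4% lower. None of the 4 FOXO genes was among the 10. Of the 8 lower genes, PCK1 averaged 0.415 ± 0.221 with extract and 0.4125 ± 0.0873 in control, with overlapping groups. FBXO32, counted lower, and INSR, counted higher, also overlapped between the groups. INSR, IRS2, PIK3IP1 and FBXO32 are themselves described above, so the counts include them. No skew of FOXO targets is read from these counts. Of the 5 tested genes of this list 1 rose and 4 fell, and their median log2 change was -0.64, against -0.50 for all tested genes. Among the 4, CCNG2 had overlapping groups (adjusted p = 0.0360 in limma, and 0.0563 without a filter). It was not called over the authors' family. TXNIP, a regulator of thioredoxin and of glucose uptake, was the gene that rose, at 162 ± 2.62 with extract and 102 ± 1.77 in control. KLF15, a transcription factor of fasting metabolism, had values of 0.81, 0.93, 0.90 and 0.70 in extract 1 to 4, against 2.63, 2.36, 1.47 and 2.95 in control 2, 3, 4 and 5. Its groups did not overlap, and the fall was -0.85 ± 0.15 (log2(value + 1), standard error, adjusted p = 0.00143 in limma). KLF15 passed the filter only through the control libraries, and its call was lost over the authors' family (adjusted p = 0.116). PDK4, a kinase that slows pyruvate oxidation, averaged 1.86 ± 0.185 with extract and 5.07 ± 0.469 in control. SELENOP, a secreted selenium carrier, averaged 10.1 ± 1.06 with extract and 16.3 ± 1.25 in control.

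SGK1 stood beside genes of the opposite direction in the list of glucocorticoid and osmotic response genes. Of its 17 genes 3 were in the table, SGK1 higher and KLF9 and ZBTB16 lower. KLF9, a transcription factor that glucocorticoids induce in many cells, had values of 5.87, 5.11, 5.14 and 5.78 in extract 1 to 4, against 10.9, 9.55, 9.85 and 10.1 in control 2, 3, 4 and 5. Its groups were well apart, and the fall was -0.78 ± 0.07 (log2(value + 1), standard error, adjusted p = 6.19e-05 in limma). ZBTB16, a zinc finger factor with the same kind of regulation, averaged 0.355 ± 0.144 with extract and 0.913 ± 0.224 in control, below the filter (adjusted p = 0.0129 in limma without a filter, and 0.401 over the authors' family). FBXO32 was the 1 listed gene of 14 ubiquitin ligase genes.

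**Figure D4:**
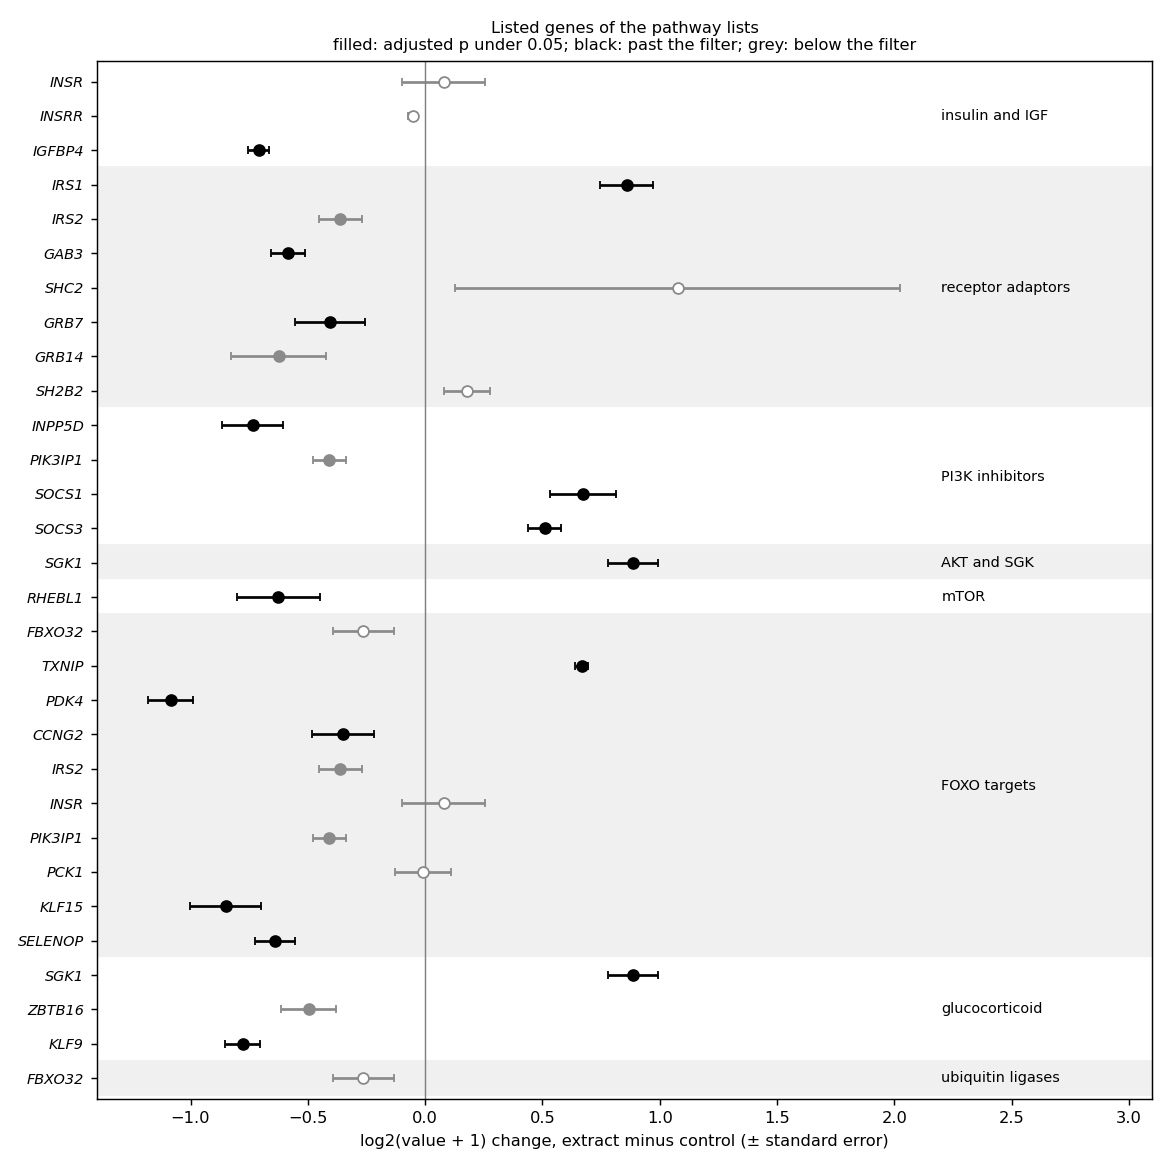
Log2(value + 1) change, extract minus control, with its standard error, of the genes found in the table from the pathway lists, grouped by list (names at the right); genes in more than 1 list appear more than once. Filled points had an adjusted p under 0.05 in limma, black points passed the filter on low values and grey points come from the fit without it; SHC2 has the widest error because 1 library stands apart.

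The tested genes whose values followed each member most closely over the 8 libraries were found by Pearson correlation of log2(value + 1) among 568 named genes. For IRS1 they were MUC4, SLC6A19 and IKZF4, with r of 0.977, 0.972 and 0.972. For SGK1 they were the sterol synthesis gene MSMO1, LINC00342 and DOP1B, with r of 0.977, 0.976 and 0.974. For INPP5D they were the MAP kinase phosphatase gene DUSP10, the growth factor gene PDGFB and SOD1P3, with r of 0.978, 0.974 and 0.966. All 9 genes had groups that did not overlap and share the libraries of the member, so these correlations mostly reflect the difference between extract and control.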

How the data were processed

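Gene expression was measured by RNA sequencing in 8 K562 libraries, 4 extract and 4 control, made with a TruSeq kit from TRIzol RNA, per the labels' protocols. HISAT2, StringTie and GRCh38 appear in the submitters' processing notes, without role or version. The authors deposited 1 normalized expression value per gene and library (unit not stated), group means, a fold change (ratio) with its log2, and the p-value and adjusted p-value of a comparison whose tool is not given in the sources used here. No counts were given, so no counting error could be set.

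Values were analysed as log2(value + 1) with limma 3.58.1 (R 4.3.3, trended robust empirical Bayes), for the 750 of 1950 genes that reached 1 in 4 or more of the 8 libraries. Adjusted p is Benjamini-Hochberg over all genes of the fit, called under 0.05. Genes below the filter come from the same fit without it. Dividing the deposited adjusted p-value by the p-value placed 80.6% of 1576 usable genes at whole ranks (within 0.02) in a family of 60664 genes, used as an alternative. Genes outside a fit were there counted as ranking behind those in it, so these adjusted values are upper limits. Ranks were among 750 genes with the filter and among 1950 without it. Positions are from GENCODE on GRCh38. The fit was tested on simulated data.

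The members, lists, tests and alternatives were chosen with earlier results of these data known. Named genes are the 7 members, up to 5 listed genes per list by lowest p, and the 3 genes most correlated with each tested member. CCNG2 and PCK1 are named in addition, for the limits of their values. Groups came from the treatment labels. The alternatives were pseudocount, filter, centring, quantile normalization, moderation, the authors' family, a replicate block and leaving out each library. A comparison of protein sequences was planned and not made. The result of 1 marker list is not reported here.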

Additional observations from a re-analysis of the deposited data

Results flagged for a closer look

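Of 68 groups of 4 libraries from the named and listed genes, 5 were flagged. In each, 1 library had a wide gap to the others relative to the range of the group, and chance alone would give about 3.4. None of the 5 flagged groups belonged to the 7 genes. SHC2, an adaptor gene, was at 26.86 in extract 2, against 0.33 to 0.69 in the other extract libraries and 0.16 to 0.96 in control. SH2B2, another adaptor gene, was at 0.42 in extract 3, with the other extract libraries at 0.03 to 0.09, and at 0.03 in control 4, with the other control libraries at 0. INSRR, the gene of a relative of the insulin receptor, was at 0.01 in extract 2 and at 0 in the other extract libraries. Where the other libraries are all at 0, as for INSRR in extract and SH2B2 in control, any value above 0 is flagged. The rate of 3.4 does not apply to such groups. MSMO1 was at 51.14 in extract 3, with the other extract libraries at 46.98 to 47.38.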

How the results depend on the processing

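IRS1 and SGK1 kept their direction and their call in all 15 alternatives, between 0.78 and 1.56 and between 0.81 and 1.16 (log2). Except for the fit without a filter, every alternative used the filter that IRS1 passed only through the extract libraries. The kept call of IRS1 in those fits is therefore not read as support. INPP5D lost its call only over the authors' family of genes (-0.73, adjusted p = 0.117 in limma). IRS2 and PIK3IP1 lost theirs over that family (-0.36 and -0.41, adjusted p = 0.559 and 0.103) and with a replicate block (-0.35 and -0.43, adjusted p = 0.132 and 0.0744). INSR turned to -0.021 without extract 4 and to -0.050 without control 3, in a range of -0.050 to 0.16 over the fits that left out 1 library. FBXO32 ranged from -0.38 to -0.16 over those fits and passed without control 2. Its permutation test turned in sign with median centring (adjusted p = 0.983), and that of IRS2 moved to an adjusted p of 0.395. Members called were 3 of 3 as reported and 5 of 7 without a filter. Over all tested genes 621 were called, and 167 over the authors' family (45 higher and 122 lower). Without a filter 314 were higher. With median centring 241 were lower and with quantile normalization 251 were lower, and 48.6% and 46.9% of the calls were then higher, against 32.4% as reported. The cause of these moves was not tested.

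The replicate numbers 2, 3 and 4 occur in both groups. Same-numbered libraries deviated together only weakly (r = 0.0754, 0.0754 and 0.149), although each of the 3 extract libraries correlated best with its own number. The labels give no pairing, and whether a number marks shared handling was not tested. The replicate block left 511 calls of 621, and 317 of 881 without a filter. Libraries whose number has no match in the other group add nothing to the change in that fit. The change then rests on the pairs numbered 2, 3 and 4, with fewer residual degrees of freedom. The calls lost there, also those of IRS2 and PIK3IP1, are therefore not read as an effect of pairing. Depth is unknown, so no limit on low values such as those of INSR, FBXO32 and PIK3IP1 could be set.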
